A study of Mus musculus with 8 samples.

Results

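The globin and erythroid genes are genes that red cells and their precursors transcribe, and they were followed in bulk RNA of fetal mouse lungs, of which 4 were controls and 4 had undergone tracheal occlusion (TO). The set was given by name, as a list of 9 gene symbols. Of these, 8 matched a gene ID among the 55385 genes counted, namely the adult alpha-globin genes Hba-a1 and Hba-a2, the adult beta-globin genes Hbb-bs and Hbb-bt, the embryonic beta-like globin genes Hbb-y and Hbb-bh1, the haem synthesis gene Alas2 and the anion exchanger gene Slc4a1. Ahsp was not analysed here.

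All lungs came from C57BL/6 fetuses and were taken whole at E18.5. In the TO group the trachea had been tied off through the uterine wall, and the tie took in one carotid artery and jugular vein, so that closing the airway and closing these vessels cannot be told apart. The dams received progesterone. The labels do not say whether control fetuses underwent a sham operation, nor whether the lungs of a group came from separate litters, so every p-value below measures only the spread between these samples. The lungs of controls 1, 2 and 4 and of TO 2, 3 and 4 were compared first (6 libraries), because the study's own figures show these specimens, and all 8 libraries second. No reason for leaving out control 3, a deep library, is given in the sources used here.

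Red cells carry oxygen on haemoglobin, a tetramer of alpha-like and beta-like chains around haem. In the mouse the first red cells come from the yolk sac and make the embryonic chains encoded by Hba-x, Hbb-bh1 and Hbb-y, whereas red cells formed later in the fetal liver make adult chains. Young red cells released from the liver still hold globin RNA, and whole lung holds its blood along with its own tissue, so that globin RNA in a lung sample can come from the blood in its vessels.

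Values are given as CPM, the read pairs of a gene in relation to all those counted on genes in the same library, scaled by TMM factors. Depth differed by library, with 22822261 read pairs on genes in control 1, 30768440 in control 2, 32382284 in control 3 and 24511486 in control 4, and 270078 in TO 1, 35002061 in TO 2, 24494782 in TO 3 and 34390241 in TO 4. TO 1 stood far below the other libraries, and 1 read there already made 3.45 CPM. Its values are therefore given with their number of reads where they are low, and 7 libraries, without TO 1, are used where a pattern across libraries is described. The lung epithelial genes Sftpc, Sftpb and Ager were abundant in every library, with Sftpc between 4437 CPM in TO 1 and 12788 CPM in TO 2.

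Globin RNA was plentiful in the lungs of both groups, and no gene of the set passed the test between TO and control lungs. Among the adult globin genes, Hba-a1 was at 1276 ± 318 CPM (mean ± SD) in controls and 1275 ± 302 CPM in TO lungs (n = 3 each). The embryonic gene Hbb-y stood at 13.8 ± 8.42 CPM in controls and 7.85 ± 8.03 CPM after TO, and the erythroid membrane gene Slc4a1 at 21.2 ± 13.1 CPM and 35.5 ± 19.0 CPM. For every gene of the set, libraries of the same group lay further apart than the group means. In bulk RNA, fewer red cells and less RNA in each of them cannot be told apart.

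Hba-a1, which encodes an adult alpha chain, was counted at 1059.5 CPM in control 1, 1641 in control 2, 1958 in control 3 and 1128 in control 4, and at 696 CPM in TO 1, 1471 in TO 2, 1427 in TO 3 and 927 in TO 4. Control 3 was highest and TO 1 lowest, and the groups overlapped. The log2 fold change of TO against control was -0.0047 (SE 0.21, adjusted p 0.999), a fold of 0.997 with 0.744 and 1.34 at 2 SE on either side. With control 3 added it was -0.18 (SE 0.25), and with all 8 libraries -0.35 (SE 0.26).

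Hba-a2, the second adult alpha gene on chromosome 11, was counted at 159 CPM in control 1, 227 in control 2, 192 in control 3 and 98.3 in control 4, and at 82.7 CPM in TO 1, 194 in TO 2, 125 in TO 3 and 121 in TO 4. Control 2 and TO 2 were the highest of their groups, control 4 lay below TO 2, TO 3 and TO 4, and the groups overlapped. TO against control gave a log2 fold change of -0.14 (SE 0.28, adjusted p 0.975).

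The transcripts of the 2 adult alpha genes were alike over 538 aligned bases except at 1 base (99.8% identity), with a shared run of 415 bases. Read pairs that align to several places were not counted, so the split between the copies is uncertain. As counted, Hba-a2 made up 13.0%, 12.1%, 8.91% and 8.02% of adult alpha counts in controls 1 to 4, and 10.6%, 11.7%, 8.03% and 11.5% in TO 1 to TO 4. The copies also share their promoters, with a run of 297 bases in common out of 300.

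The promoters of Hba-a1, Hba-x, Hbb-bs, Hbb-bt, Hbb-y and Alas2 are shown as a description of their letters. Whether they bear on the correlations across libraries given further on was not tested. The promoter of Hba-a2 is not printed, and Hbb-bh1 has no promoter entry. Sequences come from RefSeq (build GRCm38.p6), in which 6 of the 9 listed genes have a promoter entry. The 120 bases before the transcription start were searched on both strands for CACCC and for CCAAT, for TATAA and for GATAA, motifs well known from globin promoters, and matches are in capitals. On the plus strand of chromosome 11 lie the windows of Hba-a1 (chr11:32283552-32283671) and of Hba-x (chr11:32276480-32276599), the embryonic alpha-like gene, which is not of the set.
Hba-a1: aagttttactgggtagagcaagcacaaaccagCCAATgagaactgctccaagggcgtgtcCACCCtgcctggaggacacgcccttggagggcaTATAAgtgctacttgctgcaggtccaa
Hba-x: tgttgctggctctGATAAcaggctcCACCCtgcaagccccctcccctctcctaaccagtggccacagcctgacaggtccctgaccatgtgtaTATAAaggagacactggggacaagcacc

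The window of Hba-a1 held CCAAT once, CACCC once and TATAA once. Hba-x held CACCC once, TATAA once and GATAA once, and CCAAT was not among its letters. Among the same windows of all 32851 promoters, 31.7% held CACCC, 21.3% CCAAT, 11.8% TATAA and 10.5% GATAA, so that each motif alone is common. A match is a description of the letters and says nothing of binding.

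Hbb-bs, the adult beta gene with more counts, was at 1736 CPM in control 1, 2466 in control 2, 2462 in control 3 and 1872 in control 4. In TO lungs it was at 1310.0 CPM in TO 1, 2819 in TO 2, 1969 in TO 3 and 1700.1 in TO 4. TO 2 was highest and TO 1 lowest, with the controls between them, and the groups overlapped. The log2 fold change was 0.09 (SE 0.20, adjusted p 0.976), a fold of 1.07 with 0.806 and 1.41 at 2 SE on either side. With all 8 libraries the sign turned, to -0.13 (SE 0.22).

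Hbb-bt, the adult beta gene with fewer counts, was at 159.5 CPM in control 1, 213 in control 2, 212 in control 3 and 174 in control 4. In TO lungs it was at 110.3 CPM in TO 1, 254 in TO 2, 213 in TO 3 and 155 in TO 4. It followed Hbb-bs in that TO 2 was highest and TO 1 lowest, and the groups overlapped. Between the groups the log2 fold change was 0.18 (SE 0.18, adjusted p 0.937) with 6 libraries and -0.010 (SE 0.21) with all 8.

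Hbb-bt made up a steady part of adult beta counts, 8.42%, 7.95%, 7.93% and 8.53% in controls 1 to 4, and 7.77%, 8.25%, 9.77% and 8.35% in TO 1 to TO 4. TO 3 was the highest. Transcripts of Hbb-bs and Hbb-bt differ at 41 of 616 aligned bases (93.3% identity), and 58.7% of the windows of 150 bases in Hbb-bs are found unaltered in Hbb-bt, so their split is uncertain too. The beta-like genes lie on the minus strand of chromosome 7, and the windows of Hbb-bs (chr7:103827929-103828048), Hbb-bt (chr7:103813924-103814043) and Hbb-y (chr7:103853208-103853327) are printed in the direction of transcription.
Hbb-bs: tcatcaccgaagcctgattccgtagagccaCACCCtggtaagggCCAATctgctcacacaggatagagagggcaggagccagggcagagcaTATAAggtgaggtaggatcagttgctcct
Hbb-bt: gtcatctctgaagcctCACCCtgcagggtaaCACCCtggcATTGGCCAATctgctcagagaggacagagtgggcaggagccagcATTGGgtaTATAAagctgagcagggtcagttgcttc
Hbb-y: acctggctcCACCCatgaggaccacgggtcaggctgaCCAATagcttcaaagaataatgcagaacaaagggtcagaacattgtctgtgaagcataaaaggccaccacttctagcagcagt

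Hbb-bs held CACCC once, CCAAT once and TATAA once, as Hba-a1 did. Hbb-bt held CACCC at 2 places and CCAAT at 3, of which 2 lie on the other strand as ATTGG and 1 of these directly adjoins a CCAAT. Hbb-y held CACCC and CCAAT, and TATAA was not among its letters in this window.

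Hbb-y, which encodes the embryonic epsilon-type chain, was counted at 4.99 CPM in control 1, 21.8 in control 2, 7.66 in control 3 and 14.7 in control 4, and at 3.45 CPM (1 read) in TO 1, 17.1 in TO 2, 2.60 in TO 3 and 3.86 in TO 4. Control 2, TO 2 and control 4 were high and the other libraries low, so that the groups overlapped through TO 2. The log2 fold change was -0.81 (SE 0.70, adjusted p 0.923), a fold of 0.569 with 0.214 and 1.51 at 2 SE on either side. With all 8 libraries it was -0.69 (SE 0.62).

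Hbb-bh1, the other embryonic beta-like gene, was near the limit of detection, with 4, 12, 9 and 6 reads in controls 1 to 4 and 0, 4, 0 and 8 reads in TO 1 to TO 4. A count of 0 is still compatible with up to 3 reads, which are 0.124 CPM in TO 3 and 10.3 CPM in TO 1. TO against control gave -1.17 on the log2 scale (SE 1.28, adjusted p 0.940), and the groups overlapped because TO 4, at 0.227 CPM, lay above control 1, at 0.175 CPM.

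Embryonic chains were a small share of beta-like globin counts in every lung. The share of Hbb-y and Hbb-bh1 together was 0.272% (95% Wilson interval 0.227 to 0.325) in control 1, 0.820% (0.761 to 0.884) in control 2, 0.297% (0.262 to 0.337) in control 3 and 0.724% (0.654 to 0.802) in control 4. In TO lungs it was 0.242% (1 of 413 reads, 0.0428 to 1.36) in TO 1, 0.557% (0.514 to 0.604) in TO 2, 0.119% (0.0930 to 0.152) in TO 3 and 0.220% (0.187 to 0.259) in TO 4. These intervals cover counting error only. Read pairs that align to both adult beta genes were not counted, so the share can be too high. The mean of the 6 libraries was 0.605 ± 0.293% in controls and 0.299 ± 0.229% in TO lungs (n = 3 each), the groups overlapped, and the difference was not tested.

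Hba-x gave a like picture for the alpha chains, with 0.265%, 0.627%, 0.251% and 0.764% of alpha-like counts in controls 1 to 4, and 0.441% (1 read), 0.563%, 0.114% and 0.251% in TO 1 to TO 4. In CPM, Hba-x was at 3.24, 11.8, 5.41 and 9.44 in controls 1 to 4 and 3.45, 9.43, 1.77 and 2.64 in TO 1 to TO 4. Controls 2 and 4 and TO 2 were high for both embryonic genes. Read pairs that align to both adult alpha genes were not counted, so the alpha share can be too high as well.

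**Figure D1:**
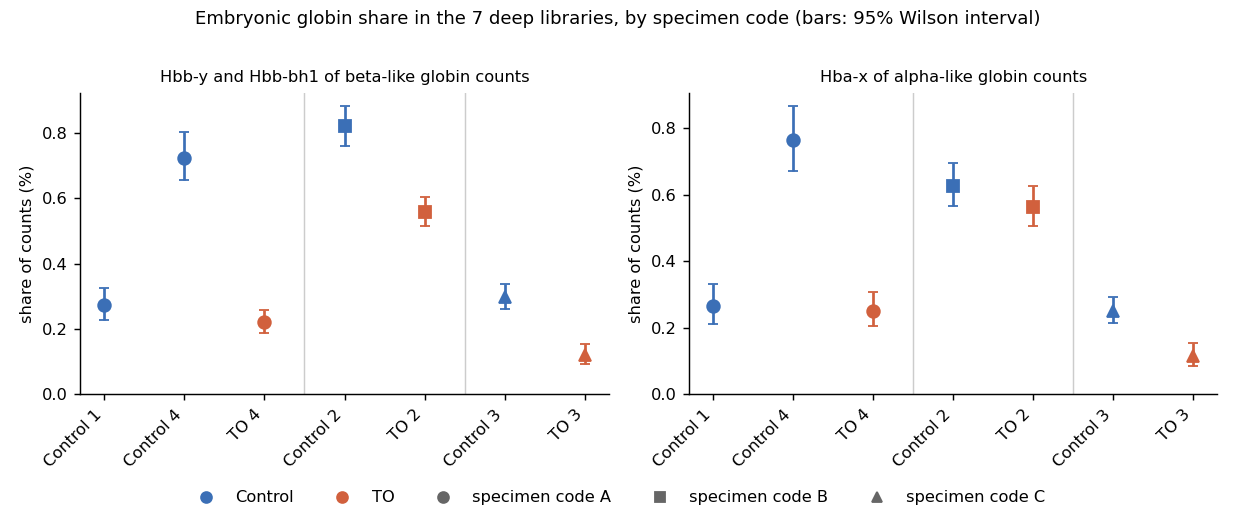
Share of embryonic globin counts in the 7 deep libraries, Hbb-y and Hbb-bh1 of all beta-like counts (left) and Hba-x of all alpha-like counts (right), in blue for controls and orange for TO lungs, set in order by specimen code. Bars are 95% Wilson intervals of the counts.

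The names of the specimens share digits in 3 sets, whose meaning the sources used here do not give. Controls 1 and 4 and TO 1 and 4 share code A, control 2 and TO 2 code B, and control 3 and TO 3 code C. The 6 globin genes took up 0.298% to 0.332% of all counts in code A without TO 1 (0.237%), 0.370% to 0.444% in code C and 0.457% to 0.469% in code B. In summed CPM codes B and C overlapped, with 4569 and 4754 CPM in code B and 3737 and 4832 CPM in code C. With TO 1 left out, the TO library of each code had less Hbb-y than every control of that code, at 0.392 of the control mean in code A, 0.786 in code B and 0.339 in code C, and the same held for Hba-x and for the embryonic share.

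These comparisons by code were made after the values were seen, and the 2 control pairs of code A share TO 4. Across all 22545 genes tested, 8.04% were lower in TO in all 4 pairs within a code and 8.41% were higher in all 4. Hbb-y and Hba-a1 were among the former. With the code as a block in edgeR, the log2 fold change of Hbb-y was -0.89 (SE 0.44, adjusted p 0.823) with 6 libraries and -1.10 (SE 0.35, adjusted p 0.860) with all 8, and that of Hba-a1 was -0.20 (SE 0.098, adjusted p 0.827) and -0.36 (SE 0.11, adjusted p 0.860), so neither passed the test in that fit. In the fit of 6 libraries TO 3 has no control of its code.

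Alas2, the erythroid enzyme of the first step of haem synthesis, was counted at 67.0 CPM in control 1, 107 in control 2, 155 in control 3 and 54.5 in control 4, and at 10.3 CPM (3 reads) in TO 1, 98.9 in TO 2, 109 in TO 3 and 64.2 in TO 4. Control 3 was highest, and the groups overlapped. For Alas2 the log2 fold change was 0.25 (SE 0.26, adjusted p 0.937) with 6 libraries and -0.28 (SE 0.41) with all 8, so its sign rests on which libraries are taken. Its promoter window lies on the plus strand of chromosome X (chrX:150547297-150547416).
Alas2: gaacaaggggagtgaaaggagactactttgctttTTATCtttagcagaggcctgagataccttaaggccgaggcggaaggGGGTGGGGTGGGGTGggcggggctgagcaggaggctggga

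In this window GATAA stood on the other strand as TTATC, and CACCC on the other strand as GGGTG at 3 places. CCAAT and TATAA were not among its letters. Of the 2403 exon bases of Alas2, 311 overlap Apex2 on the opposite strand, and reads falling on both genes were not counted.

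Slc4a1, the band 3 anion exchanger of the red cell membrane, was the most uneven gene of the set besides Hbb-y. It was counted at 15.0 CPM in control 1, 12.4 in control 2, 96.5 in control 3 and 36.2 in control 4, and at 0 CPM in TO 1, 38.0 in TO 2, 53.2 in TO 3 and 15.4 in TO 4. Control 3 had the most and TO 1 no read, and the groups overlapped. A count of 0 in TO 1 is compatible with up to 3 reads (10.3 CPM), which is below every other library. For Slc4a1 the log2 fold change was 0.73 (SE 0.48, adjusted p 0.909) with 6 libraries, -0.17 (SE 0.67) with control 3 added and -0.34 (SE 0.66) with all 8, so its sign rests on control 3.

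**Figure D2:**
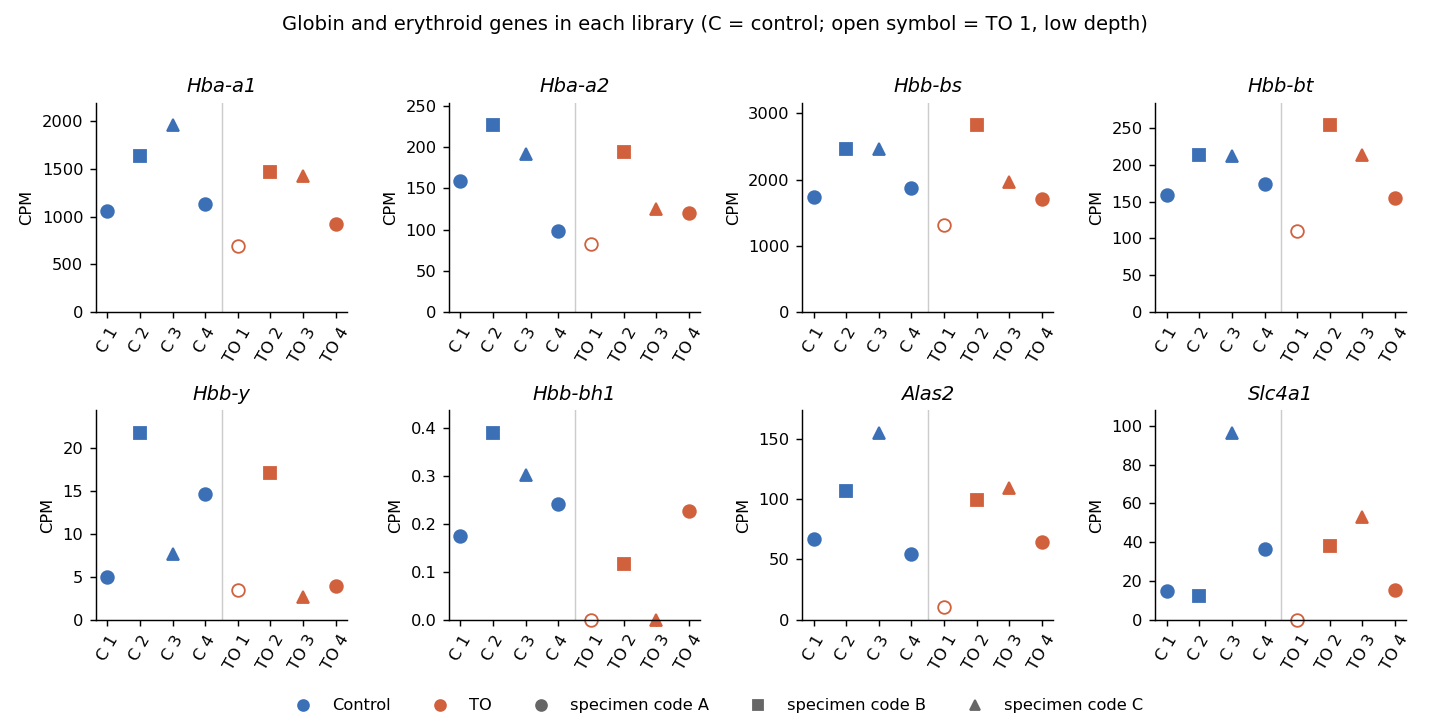
CPM of each globin and erythroid gene in every library. Control libraries are blue and TO libraries orange, symbols mark the specimen code, and the open symbol is TO 1.

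In the figure of the values by library, control 1, control 4 and TO 4 lie below control 2, control 3, TO 2 and TO 3 for Hba-a1, Hbb-bs, Hbb-bt and Alas2, Slc4a1 is set apart by control 3, and Hbb-y by control 2, control 4 and TO 2. The genes were far apart in abundance. The levels leave out read pairs that align to several places, so the ranks of the adult globin genes are uncertain. Per kilobase of exon and averaged over the 7 libraries, Hbb-bs was at 2795 CPM per kb and Hba-a1 at 1691, ranks 5 and 8 of 55144 genes. Next came Hbb-bt at 281 and Hba-a2 at 239 CPM per kb, followed by Alas2 at 39.0, Hbb-y at 16.4, Slc4a1 at 7.79 and Hbb-bh1 at 0.338. Among neighbours in this order, the ranges over the 7 libraries overlapped for Hbb-bs and Hba-a1, for Hbb-bt and Hba-a2, for Alas2 and Hbb-y, and for Hbb-y and Slc4a1, and the other steps were free of overlap.

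Variation between libraries differed by gene. The SD of log2 CPM over the 7 libraries was 1.16 for Hbb-y, 1.10 for Slc4a1, 0.85 for Hbb-bh1 and 0.53 for Alas2, against 0.44 for Hba-a2, 0.38 for Hba-a1, 0.29 for Hbb-bs and 0.26 for Hbb-bt. The adult globin genes, Alas2 and Slc4a1 were above 0.21, the median of the 10766 genes with a mean of 10 CPM or more. From the lowest to the highest of these libraries, Hbb-y differed 8.37-fold and Hbb-bt 1.64-fold.

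The 6 globin genes of the set took up 0.312%, 0.457%, 0.444% and 0.332% of all counts in controls 1 to 4, and 0.237%, 0.469%, 0.370% and 0.298% in TO 1 to TO 4. Apart from TO 1, both groups spanned nearly the same range. Alpha to beta counts stood at 0.643, 0.697, 0.804 and 0.599 in controls and at 0.549, 0.542, 0.711 and 0.565 in TO lungs. Read pairs that align to several places were not counted, which can lower both terms by unlike amounts. Of the windows of 150 bases, 48.4% in Hba-a1 and 65.7% in Hba-a2 are found in the other alpha copy. For the beta genes it is 58.7% in Hbb-bs and 50.7% in Hbb-bt. The level of the ratio is therefore uncertain. Without TO 1, this ratio was lower in TO in all 4 pairs within a code. That comparison was likewise made after the values were seen, and the difference was not tested. For each 1000 globin counts there were 21.5, 23.3, 32.0 and 16.6 counts of Alas2 in controls 1 to 4 and 4.69, 20.8, 29.3 and 22.1 in TO 1 to TO 4, and 4.82, 2.72, 19.97 and 11.02 of Slc4a1 in controls and 0, 7.98, 14.2 and 5.30 in TO lungs. Control 3 and TO 3, which share a specimen code, were highest for both erythroid genes relative to globin.

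**Figure D3:**
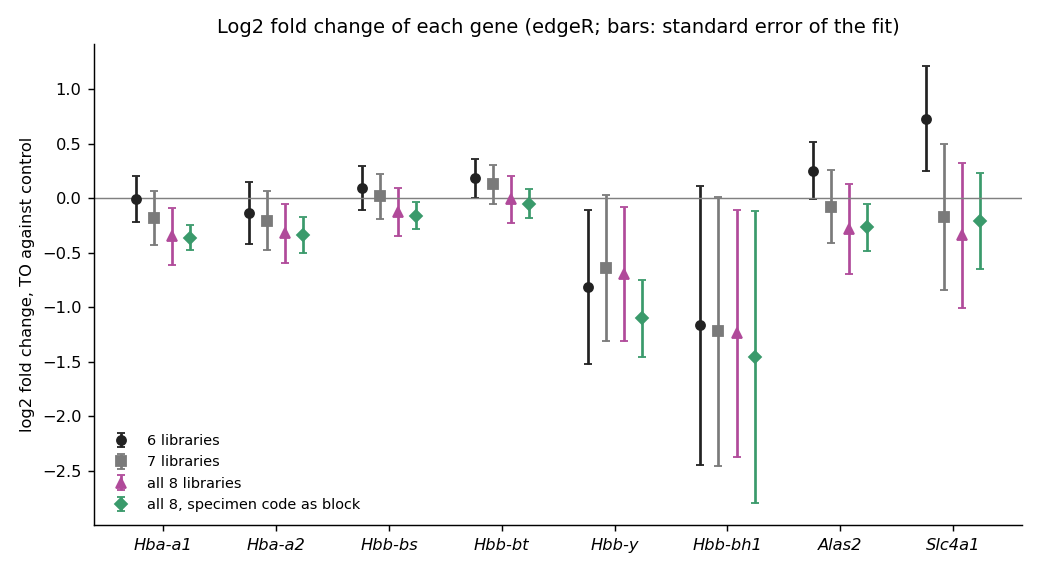
Log2 fold change of TO against control for each gene in edgeR with 6, 7 and all 8 libraries and with the specimen code as a block. Bars are the standard errors of the fit, derived from its test statistic.

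edgeR called 0 of 21859 genes (0%) at an adjusted p under 0.1 with 6 libraries and 0 of 22545 (0%) with all 8, and so none of the 8 genes of the set. An unadjusted p under 0.05 was reached by 1123 genes (5.14%) and by none of the set. DESeq2 called 44 genes (0.201%) and limma-voom 0 with the same libraries, and none was of the set. A fit with the library number as a block, whose limits are given under processing, called 219 genes in 6 libraries and 3 in all 8. No gene of the set was among these either.

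All 8 genes passed the count filter. With 6 libraries, 4 of them had a log2 fold change above 0 (Hbb-bs, Hbb-bt, Alas2 and Slc4a1), beside 49.3% of all genes tested, and the median of the set was 0.04 against -0.0045. That median ran from -0.13 without TO 2 to 0.26 without control 2, and was -0.066 with the code block. With all 8 libraries no gene of the set was above 0, beside 46.8% of all genes, and the median of the set was -0.33 against -0.02. TO 1 had the lowest value of all libraries for the 4 adult globin genes and Alas2, and control 3 the highest for Alas2 and Slc4a1. In the figure of fold changes Alas2 and Slc4a1 cross 0 once control 3 is added. Every gene of the set had overlapping groups, as had most genes tested. With 6 libraries 5.1% of all genes were higher in all TO lungs than in all controls and 5.82% lower. With all 8 libraries 2.01% were apart in either direction.

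**Figure D4:**
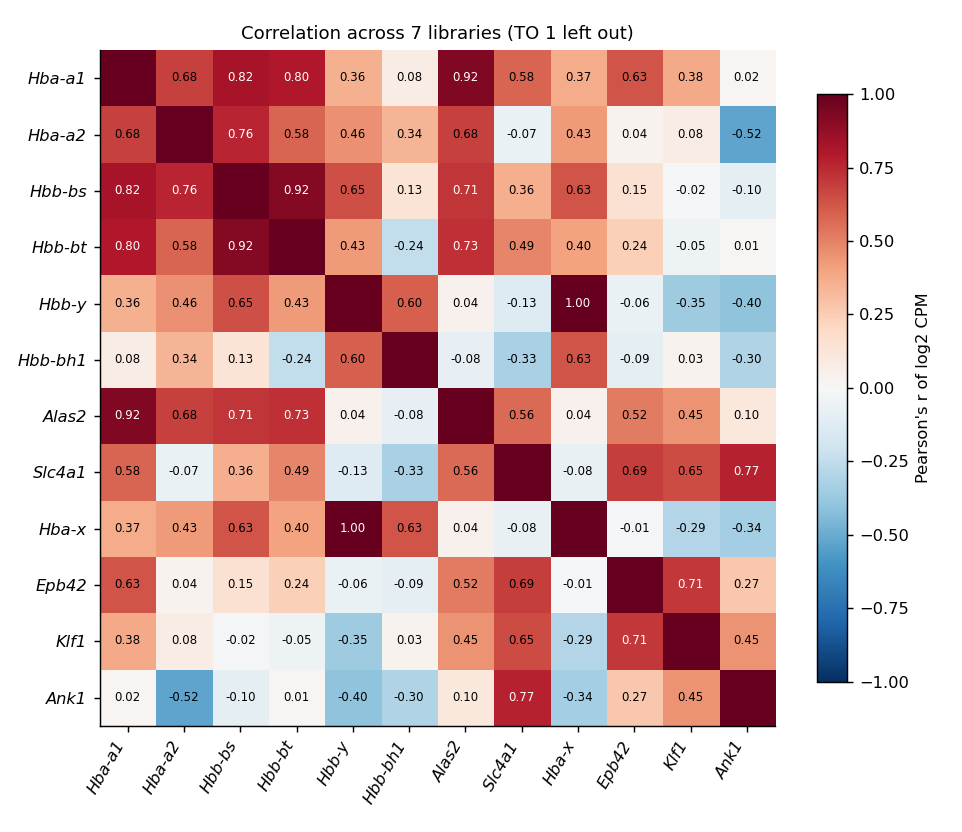
Pearson correlation of log2 CPM across 7 libraries between the genes of the set, Hba-x and other erythroid genes.

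Correlations across the 7 libraries are given as a description of chosen pairs. The libraries differ in depth, and blood content was not measured. Hba-a1 correlated with Alas2 (r = 0.92, n = 7) and with Hbb-bs (0.82), and Hbb-bs with Hbb-bt (0.92). Hbb-y and Hba-x, which lie on different chromosomes, had r = 0.996 (Spearman 0.964), but Hbb-y and Alas2 only 0.04. Slc4a1 correlated with Ank1 (0.77), the gene of the ankyrin that anchors band 3 to the membrane skeleton. With the adult globin genes and Alas2 it had r = 0.58 (Hba-a1), 0.56 (Alas2), 0.49 (Hbb-bt), 0.36 (Hbb-bs) and -0.07 (Hba-a2). Epb42, Klf1, Gata1 and Ank1, named here and below, were picked from the lists after their values were seen.

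The genes most like the mean of the set among 15876 genes were Tecpr1 (r = 0.98), Tekt1 (0.98), Kiz (0.97), Ccrl2 (0.97), Jup (0.96), Myct1 (0.96), Hey1 (0.95), Stau1 (0.95), Prr16 (0.95) and Uty (0.94), over 7 libraries. In all, 59 genes (0.372%) reached 0.9. With TO 1 added only 1 of the 10, Tecpr1, was still among the 10 highest, and Tekt1 was at -0.20, Myct1 at -0.41 and Uty at 0.09. The Y-linked gene Uty reached 50.01 CPM in control 2, 62.9 in control 3 and 57.7 in TO 2 but only 0.0438 in control 1, 0.0403 in control 4, 0.124 in TO 3 and 0 in TO 4, so the 3 libraries with most globin counts carried Y-linked RNA, as did TO 1 (27.6 CPM), which had the least. Whether sex had a part in the globin level was not tested.

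**Figure D5:**
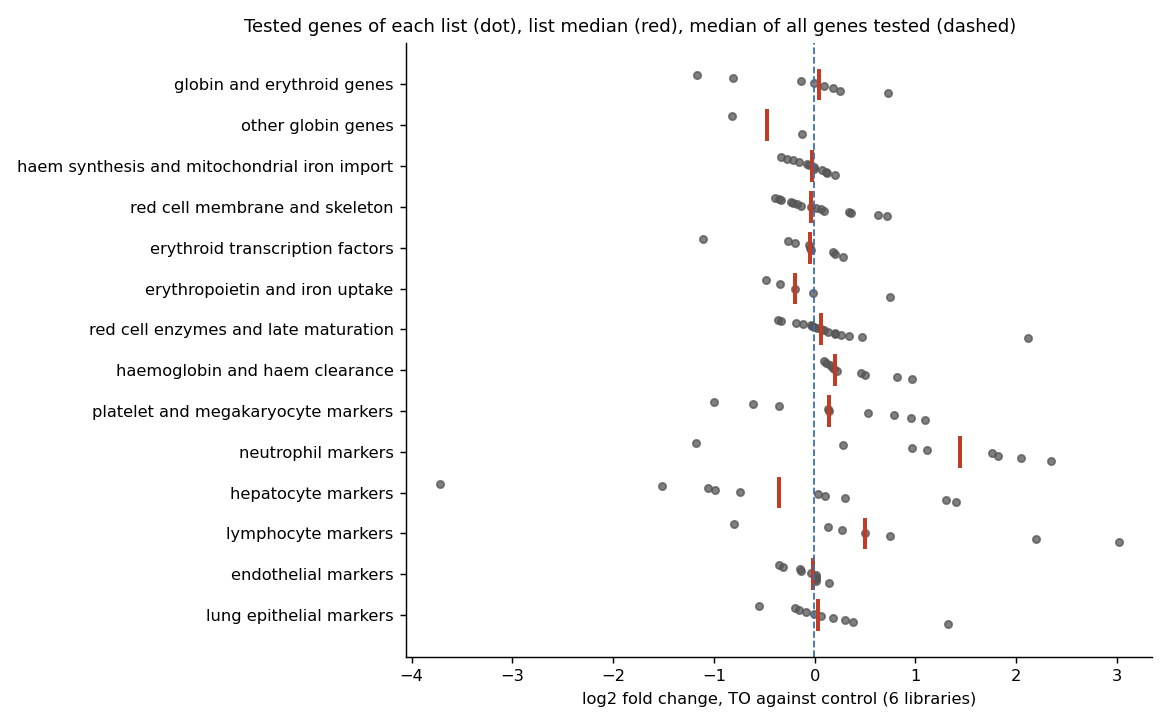
Log2 fold change of TO against control with 6 libraries for each tested gene of the lists. The red bar is the median of a list and the dashed line the median of all genes tested.

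Other genes of the red cell were described by list, and edgeR called none of them in either direction. Of the other globin genes 2 were tested, Hba-x (-0.82, SE 0.64) and Hbq1b (-0.13, SE 1.39), both below 0 on the log2 scale with a median of -0.47, which ran from -1.13 without TO 2 to 0.32 without control 2. For haem synthesis and mitochondrial iron import 4 of 12 genes were above 0 (median -0.03). Alad, which joins the first pathway intermediates, was at 96.4, 103, 93.5 and 83.2 CPM in controls 1 to 4 and 44.8, 76.3, 73.2 and 75.2 CPM in TO 1 to TO 4. Its groups did not overlap, with a log2 fold change of -0.33 (SE 0.11, adjusted p 0.907). The same list held Alas1 (-0.28, SE 0.13), the housekeeping counterpart of Alas2, and Slc25a37 (-0.15, SE 0.17), the mitochondrial iron importer.

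Genes of the red cell membrane and skeleton were 7 of 15 above 0 (median -0.04), and 3 of 15 with all 8 libraries (median -0.16), among them Epb41 (0.02, SE 0.10), Sptb (0.06, SE 0.30) and Gypc (-0.22, SE 0.15). Their summed level was 524 CPM in control 3 and between 312 and 427 CPM elsewhere. Ank1 was likewise highest in control 3, at 26.7 CPM against 5.23 to 20.1 CPM in the other libraries, and so was Epb42, which encodes protein 4.2 of the membrane skeleton, at 6.86 CPM against 0 to 4.46 CPM.

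For erythroid transcription factors 3 of 9 genes were above 0 (median -0.05), with Lmo2 (-0.27, SE 0.21), Zfpm1 (-0.05, SE 0.18) and Sox6 (0.29, SE 0.20) the most abundant. Klf1 and Gata1, which drive red cell formation, were low, at 1.26 ± 0.536 and 0.863 ± 0.369 CPM in controls and 1.11 ± 0.258 and 0.985 ± 0.244 CPM in TO lungs (n = 3 each). For erythropoietin and iron uptake 1 of 5 genes was above 0 (median -0.19). Tfrc, the transferrin receptor, stood at -0.48 (SE 0.25), the iron transporter Slc11a2 at -0.19 (SE 0.13) and the ferrireductase Steap3 at 0.75 (SE 0.27, adjusted p 0.907). Red cell enzymes and genes of late maturation were 10 of 17 above 0 (median 0.06), and 6 of 18 with all 8 libraries (median -0.16), including the mitophagy receptor Bnip3l (0.06, SE 0.11), catalase, Cat (0.47, SE 0.18), and Gpx1 (0.09, SE 0.17).

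Genes for the clearance of haemoglobin and haem were all 10 above 0 (median 0.21), beside 49.3% of all genes tested. The haem-haemopexin receptor Lrp1 was at 0.17 (SE 0.18), the ferritin gene Fth1 at 0.09 (SE 0.11) and haptoglobin, Hp, at 0.46 (SE 0.26). Cd163, the haptoglobin-haemoglobin receptor of macrophages and named here after its values were seen, was at 2.73 ± 0.614 CPM in controls and 5.34 ± 2.82 CPM in TO lungs of the 6 libraries. TO 3 was highest of these, at 8.58 CPM. Control 3, outside the 6 libraries, was at 4.27 CPM, above TO 2 (3.41) and TO 4 (4.03), so the groups overlapped with all 8. Of the 10 genes of the list, 7 were above 0 with all 8 libraries (median 0.18, and 0.027 without TO 3). The code block with 6 libraries gave a median of 0.098.

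Genes of other blood cells and of tissues that a lung sample can hold were set beside them, and whether they had a part in the globin values was not tested. Platelet markers were 6 of 9 above 0 (median 0.14), with Itga2b at 0.14 (SE 0.22), Pf4 at 0.96 (SE 0.27, adjusted p 0.907) and Gp1ba at -0.35 (SE 0.49). Lymphocyte markers were 6 of 7 (median 0.50), with Cd79b at 0.13, Ighm at 0.50 and Rag1 at 2.195, and their sum was 348 CPM in TO 1 and between 10.7 and 28.8 CPM elsewhere. Their median was 0.17 without TO 3, where Rag1 was at 9.45 CPM, against 1.36 in TO 2 and 0.511 in TO 4.

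Hepatocyte markers, which stand for the liver where fetal red cells are made, were 5 of 10 above 0, with a median of -0.36 that ran from -3.05 without TO 4 to 3.48 without control 1 and was -0.17 with all 8 libraries, with Trf at 0.30, Alb at -0.99 and Afp at -3.72 (SE 1.52). Alb reached 504 CPM in control 1 and 239.8 CPM in TO 4, and between 1.66 and 44.8 CPM elsewhere. These 2 libraries had globin shares of 0.312% and 0.298%.

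Endothelial markers, which stand for the vessels that hold the blood, were 5 of 10 above 0 (median -0.01), and 2 of 10 with all 8 libraries (median -0.19), with Cdh5 at -0.14 (SE 0.19), Pecam1 at -0.03 (SE 0.14) and Kdr at 0.01 (SE 0.14). Lung epithelial markers were 5 of 10 above 0 (median 0.03), and 5 of 10 with all 8 libraries (median -0.11), with Sftpc at 0.18 (SE 0.30), Sftpb at 0.38 (SE 0.32) and Ager at -0.09 (SE 0.30). In the fit of 6 libraries without a block, the SE of the adult globin genes was 0.18 to 0.28. There, with 3 lungs a group, differences smaller than the intervals given above could not be told from spread between libraries. The code block gave an SE of 0.098 for Hba-a1 to 0.18 for Hba-a2 with 6 libraries, and no adult globin gene passed the test in that fit.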

How the data were processed

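RNA of whole lungs was sequenced as NexteraXT libraries of read pairs. The authors aligned the reads with STAR and deposited raw counts of read pairs for each gene, without normalization, and the counts for both strands together were used. Of all read pairs, 3.76% to 4.28% aligned to several places and 5.00% to 5.74% fell on more than 1 gene, and neither were counted. Symbols, exon lengths and coordinates came from GENCODE M21.

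A gene was tested if it had 5 reads or more in no fewer than 3 libraries. The groups were compared in edgeR 4.0.16 (quasi-likelihood, TMM factors) under R 4.3.3, p-values were adjusted by Benjamini-Hochberg across every gene in the test, and 0.1 was the threshold. Log2 CPM used a prior count of 2. The standard errors of edgeR were derived from its test, as the absolute log2 fold change over the square root of the F statistic. Genes named were those of the set, the 3 most abundant tested genes of each list, any gene called, and the 10 genes most correlated with the mean of the set at a mean of at least 1 CPM. Others were picked after their values were seen. The set and the lists were chosen with earlier results of these data known. Lists were described by counts and medians and were not tested, and some of their genes are not reported here by themselves.

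Alternatives were DESeq2 1.42.0, limma-voom (limma 3.58.1), other filters and scaling, single strand columns, all 8 libraries, each library left out, and blocks. The fit by specimen code, the fit of 5 libraries and DESeq2 with all 8 were added after seeing the data. Python 3.11.15 and matplotlib 3.10.9 drew the figures, and the code was tested on simulated data.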

Additional observations from a re-analysis of the deposited data

Results flagged for a closer look

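Among 32 pairs of a group of 4 libraries and a measure, 2 had a library far from the others of its group. Hbb-y was at 17.1 CPM in TO 2, and the gap to the next TO library was 0.913 of the range of the group, above the critical value of Dixon's test. The ratio of alpha to beta globin counts was 0.711 in TO 3, with a gap of 0.864 of the range. Among 20 such groups chance gives about 1 of this kind. Control 2, of the same code as TO 2, was the control with most Hbb-y, at 21.8 CPM. Control 3, of the same code as TO 3, had the highest ratio among controls, at 0.804. No explanation was tested for the values of TO 2 and TO 3.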

How the results depend on the processing

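TO 1 limits every value of all 8 libraries, since 1 read there is 3.45 CPM, and 3 lungs a group leave wide errors. For the fold changes of the globin and erythroid genes, 105 alternative values kept their sign and 20 turned, and with a library left out 97 kept it and 12 turned. No gene of the set was called under any setting. Hbb-y stayed below 0 in all 23 fits, that of the 6 libraries and its alternatives, from -2.09 to -0.32, and with a library left out of all 8, from -1.91 to -0.27. Hbb-bh1 stayed below 0 in the 17 of these fits that gave it a value, from -2.26 to -0.62, and with a library left out of all 8, from -2.11 to -0.71. Among the former it had no value with 5 reads in every library, with either strand column alone or with 3 of the left-out libraries. The embryonic share was also computed per kilobase, at 0.728% in controls and 0.359% in TO lungs.

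The number of genes called, 0 with 6 libraries, was 40 without a filter, 44 in DESeq2 and 0 to 144 with a library left out, and 7 in DESeq2 with all 8. Genes of the set above 0, 4 with 6 libraries, were 0 with all 8, 2 with 7, 0 with the code block and all 8, 2 with 5 libraries (controls 2, 3 and 4 and TO 2 and 3) and 3 to 6 with a library left out, and 0 to 3 with a library left out of all 8. Hba-a1 was at 0.0045 with 5 reads in every library and at 0.0098 with RLE factors and in DESeq2. With all 8 libraries Hbb-bs was at -0.13, Hbb-bt -0.010, Alas2 -0.28 and Slc4a1 -0.34. With 7 libraries Alas2 was at -0.076 and Slc4a1 -0.17, and with 5 libraries -0.017 and -0.086. With the code block and all 8, Hbb-bs was at -0.16, Hbb-bt -0.051, Alas2 -0.27 and Slc4a1 -0.21. The cause was not tested.

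With a library left out of the 6, values ran from -0.12 to 0.22 for Hba-a1, -0.40 to 0.19 for Hba-a2 and -0.14 to 0.26 for Hbb-bs. They ran from 0.014 to 0.36 for Hbb-bt, 0.065 to 0.58 for Alas2 and 0.34 to 1.37 for Slc4a1. Out of all 8 they ran from -0.36 to 0.019 for Hbb-bs, -0.20 to 0.13 for Hbb-bt, -0.50 to 0.093 for Alas2 and -0.79 to 0.60 for Slc4a1. Of the list medians 213 stayed within the spread of the replicates and 11 moved, and with a library left out 190 stayed and 6 moved. That spread was the larger group SD of the mean log2 CPM of a list. With 6 libraries it was 0.41 for the set but 3.48 for hepatocyte markers. A median could therefore stay and still change sign, as that of hepatocyte markers did in limma-voom, at 1.27. For lists with a wide spread, staying says little. Haem synthesis moved to -0.091 with strand column 3 and -0.11 to 0.024 with a library left out, platelet markers to 0.86 with strand column 4, 0.56 and 0.45 with the code block in 6 and 8 libraries and -0.016 to 0.43 with a library left out, and lymphocyte markers to 1.23 without a filter, 1.22 with all 8 and 1.32 with strand column 4. The lymphocyte median was also lower in places, at 0.17 without TO 3, 0.14 with strand column 3 and 0.18 with the code block in 6 libraries. Hepatocyte markers ran from -3.05 to 3.48 with a library left out, and from -2.73 to 2.94 out of all 8, and endothelial markers from -0.27 to 0.063. Of the 10 genes most like the set, 1 was shared with all 8 libraries and 6 with a prior count of 0.5.

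The labels give both groups the numbers 1 to 4, and nothing says that a number pairs lungs. Deviations from the group means correlated by 0.052, 0.13, 0.157 and 0.071 for the same numbers, and by 0.125, 0.204 and 0.109 for numbers 2 to 4 without TO 1, so all were above 0.1 only in these 7 libraries, and pairing was not taken as established. Not every library correlated best with its own number. In 7 libraries control 1 and TO 4, which share a specimen code, reached 0.168, and no pair of different codes was above 0.014. In the 6 libraries the pairs of the same code were control 1 and TO 4 at 0.13, control 2 and TO 2 at 0.110, and control 4 and TO 4 at 0.044. The last lay below control 4 and TO 3, of different codes, at 0.063. With the number as a replicate block edgeR called 219 genes in 6 libraries and 3 in all 8. In the fit of 6 libraries only numbers 2 and 4 occur in both groups, control 1 and TO 3 stand alone in their blocks, and 1 residual degree of freedom is left. Under the block Hba-a1 was at -0.22 (SE 0.12) with 6 libraries and -0.37 (SE 0.11) with all 8, and Hbb-y at -1.11 (SE 0.31, adjusted p 0.126) and -1.24 (SE 0.32, adjusted p 0.640). In the block fits the genes of the set above 0 were 0 with all 8, Hba-a2 was at 0.037 with 6, and with all 8 Hbb-bs was at -0.17, Hbb-bt -0.072, Alas2 -0.32 and Slc4a1 -0.33. The block moved haem synthesis to -0.085, platelet markers to 0.44 (0.46 with all 8) and hepatocyte markers to 3.87, and the median of the other globin genes was -1.60 (-1.43 with all 8).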

Other observations

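Neutrophil markers stood highest among the lists, with 7 of 8 tested genes above 0 on the log2 scale (median 1.44, and 1.31 with all 8 libraries), though edgeR called none. Their sum was 55.9, 38.4, 32.5 and 23.5 CPM in controls 1 to 4. It was 72.4, 55.1, 115.5 and 171.1 CPM in TO 1 to TO 4, so the sums of the groups overlapped through control 1 and TO 2. S100a8, a calcium-binding protein of neutrophil cytoplasm, was at 9.33, 8.54, 5.31 and 4.44 CPM in controls 1 to 4 and at 13.8, 10.995, 26.1 and 41.6 CPM in TO 1 to TO 4, without overlap of the groups. Its log2 fold change was 1.82 (SE 0.46, adjusted p 0.907). Ltf, the lactoferrin of their granules, was at 1.117 (SE 0.32) with no overlap, and S100a9 at 1.76 (SE 0.53) with overlap through TO 2. Prtn3, a granule protease, went the other way at -1.18 (SE 0.64), with TO lower without overlap in the 6 libraries. Mpo, another granule enzyme, was at 1.27 CPM in control 1 and 0 to 0.739 CPM elsewhere, with too few reads for a test in the 6 libraries. Both are named after their values were seen. Over all genes tested, 5.1% were higher in TO without overlap and 5.82% lower in the 6 libraries. With all 8 libraries 2.01% were apart in either direction.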
